A study of Mus musculus with 24 samples.

Results

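Mitochondrial ribosomal proteins are the protein subunits of the ribosome that works inside the mitochondrion. The set holds the 77 genes whose only annotated symbol begins with Mrpl or Mrps followed by a digit, out of 19938 genes that the array annotation pairs with a single symbol. A gene with more than 1 probe set is represented by its brightest. The large subunit list takes 50 of the 77, of which 29 have a counterpart in bacterial ribosomes and 21 are found in mitochondrial ribosomes only. The small subunit list takes 26, of which 16 have a bacterial counterpart and 10 do not. Mrps30 and Mrps18a carry small subunit names but sit in the large subunit and are counted there. Mrps18a and Mrps18b were counted as mitochondrial only, though they share a name with Mrps18c, which was counted with a bacterial counterpart. Mrps36 is on neither list, since the protein is now known as a component of the 2-oxoglutarate dehydrogenase complex. Mrpl53 shares its probe set with Ccdc142 and was not counted.

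The mitochondrial ribosome reads only the messages of the mitochondrial genome, which encode core subunits of the respiratory chain and of the ATP synthase. Its RNAs come from mitochondrial DNA, whereas all of its proteins are encoded in the nucleus, made in the cytosol and imported. Muscle fibres differ in how much mitochondrial mass they hold, and slow oxidative fibres hold more than fast glycolytic ones.

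Messenger RNA was measured on Affymetrix arrays in 4 groups of 6 arrays each, from male mice 40 to 42 days old of mixed strain background (C57BL/6J and 1219S6/SvEvTac). The groups were quadriceps cKO, quadriceps control, soleus cKO and soleus control. All mice of all groups carried the conditional allele of nebulin (Neb), a giant protein along the sarcomere's thin filament, on both chromosomes. The cKO mice also had 1 copy of the MCK-Cre transgene, in which the muscle creatine kinase promoter drives Cre in muscle, and the controls had none, so that no group was free of the conditional allele and no group carried Cre alone. The submitters describe the cKO quadriceps as markedly smaller and the cKO soleus as not significantly smaller. RNA of whole muscle holds all its cell types, and fewer cells of a type cannot be told apart from less RNA per cell.

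Gene positions are those of RefSeq in GRCm38.p6. Values are log2 intensities, and a change is a difference of group means on that scale with its standard error (SE). A change was called at an adjusted p under 0.05 (limma, Benjamini-Hochberg over 15999 genes kept, two-sided). All 77 genes lay above the limit for dim genes on every array. The targeted gene was lower in cKO, as the labels have it. Neb averaged 10.84 ± 0.23 in quadriceps cKO and 12.29 ± 0.17 in quadriceps control, and 11.24 ± 0.20 in soleus cKO and 12.38 ± 0.21 in soleus control (SD, n = 6 each), with no overlap between genotypes in either muscle. Of all genes kept, 40% were called in quadriceps and 23.1% in soleus. The number of arrays limits the precision, and the median SE over genes was 0.097 for a change within a muscle. Quadriceps control 4 had the lowest array weight in limma (0.207), followed by quadriceps control 6 (0.389) and soleus control 1 (0.394). Several results that rest on them are also given without them.

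NRF1, a transcription factor of nuclear genes for mitochondrial proteins, binds a palindrome of GCGC, A and TGCGC. The promoters of 3 genes that fell in quadriceps are shown because each holds GCGC and TGCGC with 1 base of any kind between them, on either strand. Each run is the 250 bases before the gene's start in RefSeq's GRCm38.p6 annotation, 5′ to 3′ on the gene's own strand, with the match in capitals. The Mrps21 run is chr3:95871515-95871764 on the minus strand, the Mrpl12 run is chr11:120484387-120484636 on the plus strand, and the Mrpl44 run is chr1:79775768-79776017 on the plus strand.
Mrps21: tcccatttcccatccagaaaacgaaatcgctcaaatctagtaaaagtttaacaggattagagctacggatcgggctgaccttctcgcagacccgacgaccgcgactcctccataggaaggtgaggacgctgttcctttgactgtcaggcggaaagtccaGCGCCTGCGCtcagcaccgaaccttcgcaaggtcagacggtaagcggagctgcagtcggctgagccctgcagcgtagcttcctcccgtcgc
Mrpl12: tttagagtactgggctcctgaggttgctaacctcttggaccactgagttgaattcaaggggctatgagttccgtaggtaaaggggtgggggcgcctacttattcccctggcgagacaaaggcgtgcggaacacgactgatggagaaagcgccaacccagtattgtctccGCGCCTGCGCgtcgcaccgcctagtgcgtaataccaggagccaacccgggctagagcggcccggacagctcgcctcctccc
Mrpl44: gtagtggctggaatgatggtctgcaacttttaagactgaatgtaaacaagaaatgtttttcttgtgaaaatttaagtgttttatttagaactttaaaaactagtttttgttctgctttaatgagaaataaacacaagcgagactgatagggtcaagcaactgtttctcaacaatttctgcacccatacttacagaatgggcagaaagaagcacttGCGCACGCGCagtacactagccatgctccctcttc
With the start base as 0, the matches begin at -91 in Mrps21, -81 in Mrpl12 and -35 in Mrpl44. Mrps21 encodes the mitochondrial bS21, Mrpl12 the protein of the stalk that contacts translation factors, and Mrpl44 a protein of the large subunit with a ribonuclease fold. Mrpl12 and Mrpl44 were picked after their values were seen. The quadriceps changes were -0.63 for Mrps21, -0.44 for Mrpl12 and -0.34 for Mrpl44. Counts of this and of other motifs over the set are given after the muscle comparisons.

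The level of the set as a whole was summarised on each array by the median over the 77 genes. In quadriceps cKO this median ran between 7.34 and 7.57 with a middle value of 7.40, against 7.50 to 7.96 with a middle value of 7.67 in quadriceps control. In soleus cKO it ran between 7.16 and 7.43 with a middle value of 7.33, against 7.39 to 7.49 with a middle value of 7.41 in soleus control. The groups overlapped in both muscles: in quadriceps only cKO 4 reached above the lowest control, array 1, and in soleus cKO 5 and cKO 6 reached into the control range. The 6 soleus controls lay closest together (SD 0.038), and the quadriceps controls were the most spread (SD 0.17), with control 4 at the top at 7.96 and control 5 next at 7.84.

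**Figure D1:**
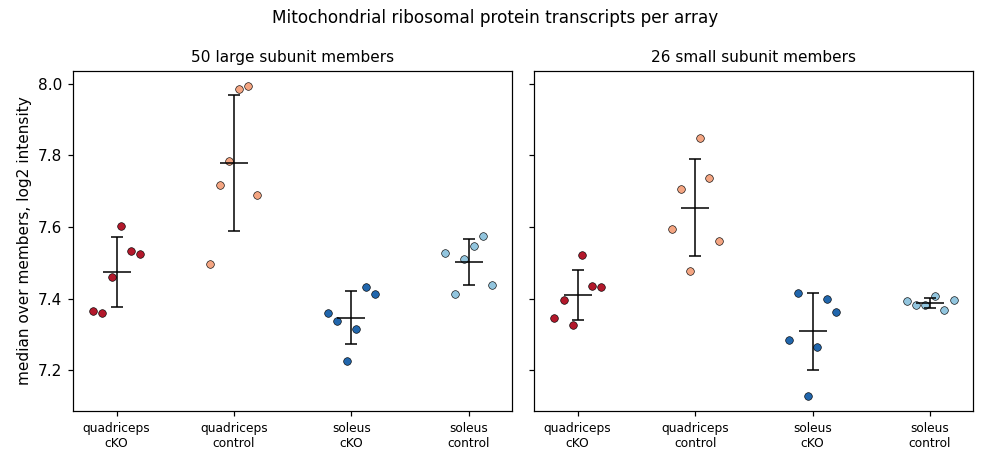
Median log2 intensity of the 50 large subunit genes (left) and the 26 small subunit genes (right) on each array (points), with group mean and SD (bars), 6 arrays a group. In both panels the quadriceps controls have the highest mean and the widest spread, and the small subunit medians of the soleus controls lie within 7.37 and 7.41.

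In quadriceps, transcripts of mitochondrial ribosomal proteins were lower in cKO for most of the set. Of the 77 genes 47 fell and 1, Mrpl33, rose, where 17.7% of all genes kept were called lower and 22.3% higher. The change was negative for 72 of 77, where 51.7% of all genes were negative, with a median of -0.31, against a median of -0.01 over all genes. In 11 genes every cKO array lay below every control array, which holds for 6.06% of all genes. Leaving out quadriceps control 4 left 40 genes called lower and a median of -0.26. The count was 48 without quadriceps control 6, and 47 without the 3 arrays of lowest weight.

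Both subunits took part. In the large subunit 30 of 50 genes fell (median -0.32), and in the small subunit 16 of 26 fell (median -0.27) and none was positive. By origin, 18 of 29 large subunit genes with a bacterial counterpart fell (median -0.32) and 12 of 21 mitochondrial ones did (median -0.19). In the small subunit 9 of 16 with a bacterial counterpart fell (median -0.21) and 7 of 10 mitochondrial ones did (median -0.32).

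**Figure D2:**
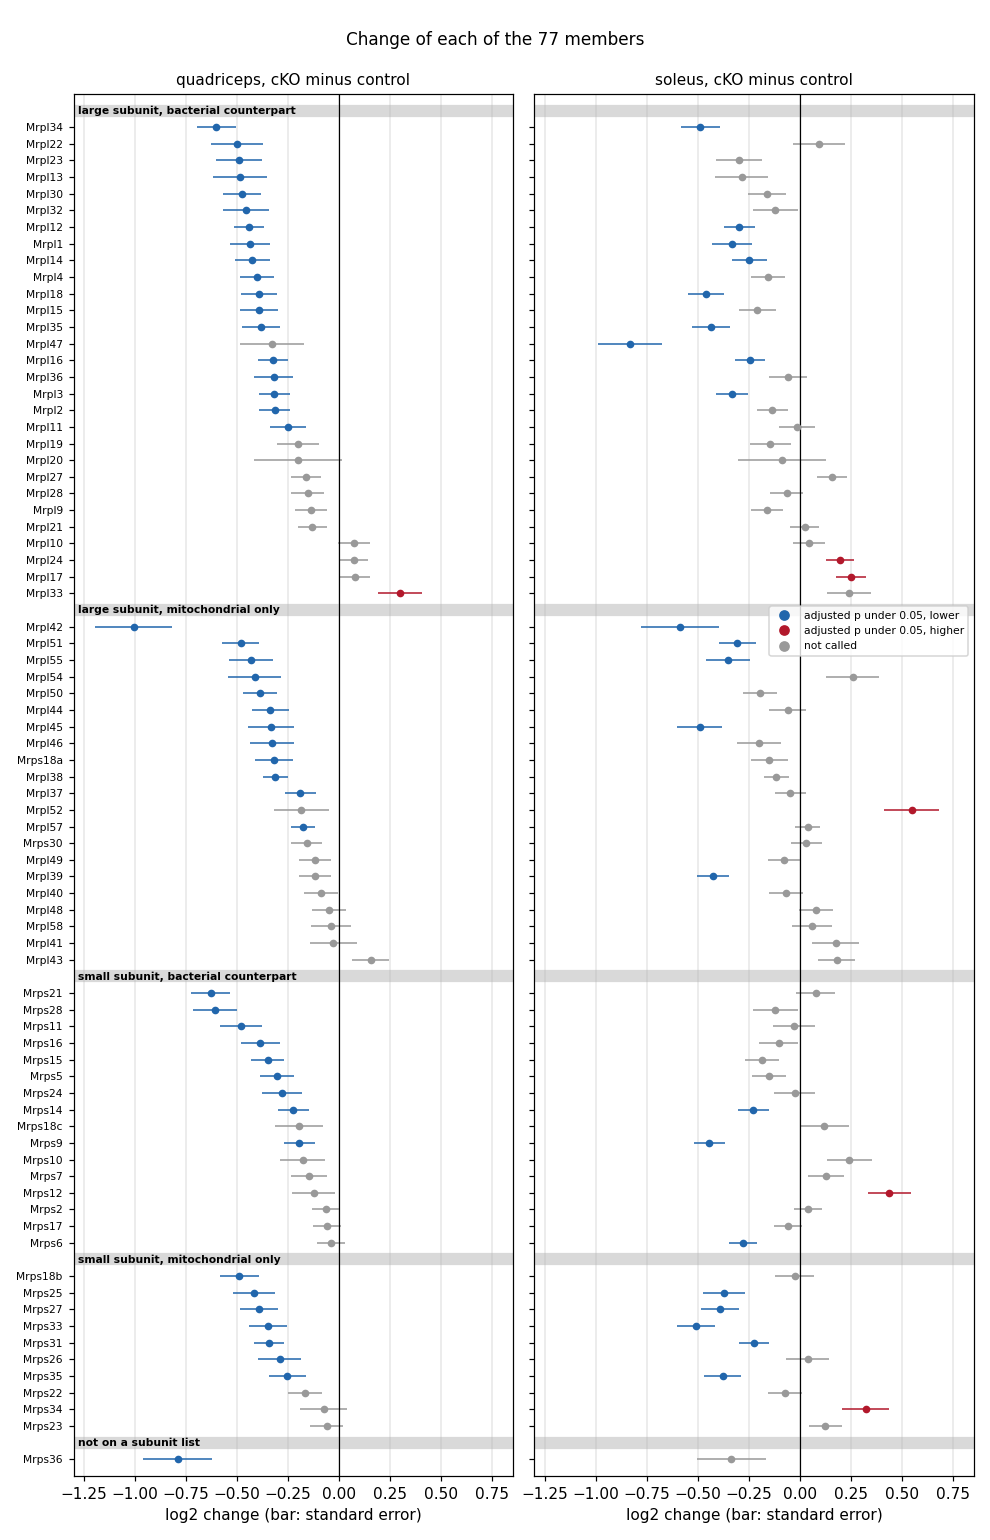
Log2 change (cKO minus control) with its SE for each of the 77 genes, in quadriceps (left) and soleus (right), grouped by subunit and by bacterial counterpart and ordered by the quadriceps change. Blue marks genes called lower, red genes called higher and grey genes not called; the quadriceps column holds 47 blue and 1 red point, the soleus column 22 blue and 5 red.

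The quadriceps change furthest below 0 was that of Mrpl42 (chr10:95480805-95501949), a large subunit protein with no bacterial counterpart. Mrpl42 had 6.57, 7.23 and 7.39 in quadriceps cKO (lowest, median, highest), against 7.58, 8.0 and 9.37 in quadriceps control. The groups did not overlap, and control 4, at 9.37, stood far above the other controls. The change was -1.01 (SE 0.19, adjusted p = 0.000142), a 2.01-fold lower level, and -0.76 without quadriceps control 4 (adjusted p = 2.38e-05).

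Mrpl34 (chr8:71464926-71465753), the mitochondrial bL34, had 7.21, 7.40 and 7.74 in quadriceps cKO, against 7.76, 8.10 and 8.29 in quadriceps control. All cKO arrays were below all controls, by a narrow margin. Its change was -0.60 (SE 0.094, adjusted p = 1.28e-05).

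Among small subunit genes the lowest change belonged to Mrps21, whose promoter is printed above. Mrps21 had 8.51, 8.68 and 8.82 in quadriceps cKO, against 9.04, 9.21 and 9.82 in quadriceps control. The genotypes were separate on every array, and the change was -0.63 (SE 0.095, adjusted p = 7.22e-06). Mrps28, related to bacterial bS1, had 7.84, 8.10 and 8.22 in quadriceps cKO, against 8.20, 8.69 and 9.0 in quadriceps control. Here the lowest control fell among the cKO arrays, and the change was -0.61 (SE 0.11, adjusted p = 6.92e-05).

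Mrps36, the dehydrogenase component, had 6.19, 6.45 and 6.73 in quadriceps cKO, against 6.86, 6.99 and 8.38 in quadriceps control. The groups were separate and control 4 was again the highest. The change was -0.79 (SE 0.17, adjusted p = 0.00054), and -0.56 without that array (adjusted p = 5.76e-05).

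The next changes in order lay between -0.50 and -0.48. They were those of Mrpl22 and Mrpl23, both at the tunnel through which the new chain leaves the ribosome, Mrps18b, Mrpl13, Mrpl51, Mrps11 and Mrpl30. Their adjusted p lay between 0.000144 for Mrpl51 and 0.00459 for Mrpl13, and cKO and control arrays overlapped in all 7. Mrpl13 depended most on 1 array: its change was -0.48 with all arrays and -0.31 without quadriceps control 4 (adjusted p = 0.0032).

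Mrpl33, the mitochondrial bL33, was the exception. It had 6.38, 6.45 and 6.54 in quadriceps cKO, against 5.85, 6.15 and 6.59 in quadriceps control. The cKO arrays lay close together inside the upper part of a wide control range. The change of 0.30 (SE 0.11, adjusted p = 0.0274) was no longer called without quadriceps control 3 or 6, or with arrays centred on their 75th percentile or quantile normalized again (highest adjusted p = 0.166). Of the 48 genes called, 37 remained called whichever of the 24 arrays was left out.

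**Figure D3:**
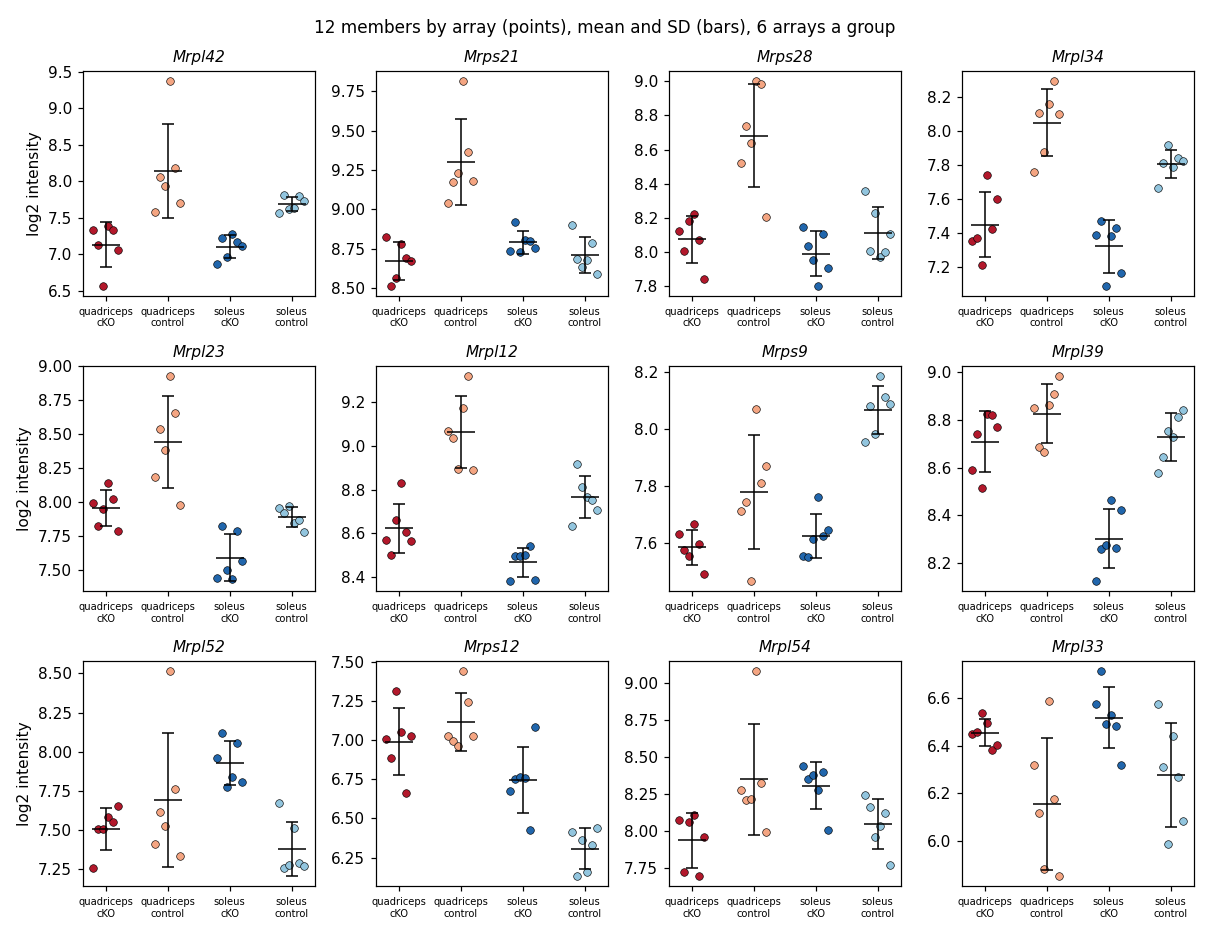
Log2 intensity of 12 genes on each array (points) with group mean and SD (bars), 6 arrays a group, each panel with its own axis. In quadriceps Mrpl42, Mrps21, Mrpl34 and Mrpl12 separate the genotypes on every array; in soleus Mrpl42, Mrpl34, Mrpl12, Mrps9, Mrpl39 and Mrpl52 do.

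In soleus the decrease covered fewer genes. There 22 of 77 fell and 5 rose, where 9.94% of all genes kept were called lower and 13.2% higher. The median change was -0.12, against -0.02 over all genes, and 53 of 77 were negative, where 54.5% of all genes were. In 12 genes all cKO arrays lay below all controls (4.96% of all genes), and in Mrpl24 and Mrpl52 all lay above (7.82% of all genes). By subunit, 14 of 50 large subunit genes fell and 3 rose (median -0.13), and 8 of 26 small subunit genes fell and 2 rose (median -0.07). Leaving out soleus control 1 gave 22 genes lower and 6 higher. Leaving out the 3 arrays of lowest weight gave 27 lower and 9 higher.

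Mrpl47 (chr3:32727497-32736755), the mitochondrial uL29, had the lowest soleus change. It had 6.24, 6.35 and 6.65 in soleus cKO, against 6.44, 7.32 and 7.59 in soleus control. Most controls were clearly above the cKO arrays, and soleus control 1 lay among them, at the bottom of its group. The change was -0.83 (SE 0.16, adjusted p = 0.000219), and the call held whichever array was left out. A second, dimmer probe set annotated to Mrpl47 gave a soleus change of -0.10 (adjusted p = 0.643) and a quadriceps change of -0.60 (adjusted p = 0.000515), and the mean of both probe sets gave -0.46 in soleus (adjusted p = 0.0012).

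Mrpl42 again separated the genotypes, with 6.87, 7.14 and 7.28 in soleus cKO, against 7.57, 7.68 and 7.81 in soleus control. Its change was -0.59 (SE 0.19, adjusted p = 0.0245), and the call was lost without soleus cKO 1 (adjusted p = 0.0571). With quadriceps control 4 left out, the adjusted p was 0.000407.

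Mrps9 (chr1:42851233-42905683), the mitochondrial uS9, had 7.55, 7.62 and 7.76 in soleus cKO, against 7.96, 8.08 and 8.19 in soleus control. No arrays overlapped, and the change was -0.44 (SE 0.076, adjusted p = 7.77e-05). In quadriceps the change of Mrps9 was -0.19 (adjusted p = 0.0444), a call lost in 12 of the 24 fits that left out an array.

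Mrpl39, a large subunit protein found only in mitochondrial ribosomes, had 8.12, 8.27 and 8.46 in soleus cKO, against 8.58, 8.74 and 8.84 in soleus control. The groups were separate, and the change was -0.43 (SE 0.077, adjusted p = 0.000131), whereas in quadriceps it was -0.12 (adjusted p = 0.225). The difference between those changes was 0.31 (adjusted p = 0.0605).

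Mrps33, Mrpl45, Mrpl34, Mrpl18, Mrpl35, Mrps27, Mrps35 and Mrps25 also fell in soleus, with changes between -0.51 and -0.37 and adjusted p between 0.000171 and 0.008. Mrpl45 is the protein that anchors the large subunit to the inner membrane, and Mrpl18 belongs to the family that binds 5S ribosomal RNA in bacteria. Mrps27 is a pentatricopeptide repeat protein of the small subunit. Each of these 8 was also called lower in quadriceps.

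The 5 genes that rose in soleus were Mrpl52, Mrps12, Mrps34, Mrpl17 and Mrpl24. Mrpl52 (chr14:54426909-54429750), found only in mitochondrial ribosomes, had 7.77, 7.90 and 8.12 in soleus cKO, against 7.26, 7.28 and 7.67 in soleus control. All cKO arrays were above all controls, and the change was 0.55 (SE 0.13, adjusted p = 0.00339). Mrps12 (chr7:28739641-28741821), whose bacterial relative helps to keep decoding accurate, had 6.43, 6.75 and 7.09 in soleus cKO, against 6.13, 6.35 and 6.44 in soleus control. Only the lowest cKO array overlapped the controls, and the change was 0.44 (SE 0.11, adjusted p = 0.00284).

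Mrpl17 changed by 0.25 (adjusted p = 0.0136), Mrps34 by 0.32 (adjusted p = 0.0443) and Mrpl24 by 0.20 (adjusted p = 0.0332). The calls of Mrps34 and Mrpl24 were the least stable: Mrps34 lost its call in 15 and Mrpl24 in 10 of 36 alternative settings. Without soleus control 2, 3 or 5, or soleus cKO 1, 2 or 5, 3 genes were called higher in soleus, and without soleus cKO 4 the calls of both were lost too.

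Of the 47 genes called lower in quadriceps and the 22 called lower in soleus, 19 were shared, which is 40.4% of the quadriceps list and 86.4% of the soleus list. The overlap was not counted over all genes. Since 61% of the set was called lower in quadriceps, a large share of any part of the set would lie in that list. Mrpl39, Mrpl47 and Mrps6 were called lower in soleus but not in quadriceps. No gene was called higher in both, none was called lower in one muscle and higher in the other, and 21 were called in neither.

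Whether a change differed between muscles was tested directly as the quadriceps change minus the soleus change. This difference was below 0 and called for 9 of 77 genes and above 0 for none, where 4.89% of all genes kept were called lower and 7.39% higher. The median difference was -0.16, against 0.00 over all genes. The largest were those of Mrpl52 at -0.73 (SE 0.19, adjusted p = 0.0121) and Mrps21 at -0.71 (SE 0.13, adjusted p = 0.000922). Mrpl52 had a quadriceps change of -0.18 (adjusted p = 0.279) and rose in soleus, and Mrps21 fell in quadriceps with a soleus change of 0.08 (adjusted p = 0.611).

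Mrpl54, a mitochondrial protein of the large subunit, had 7.70, 8.01 and 8.11 in quadriceps cKO, against 7.99, 8.25 and 9.08 in quadriceps control. In soleus it had 8.01, 8.36 and 8.44 in cKO, against 7.77, 8.08 and 8.24 in control. The cKO arrays thus lay low in quadriceps and high in soleus, with overlap in both. Its difference was -0.67 (adjusted p = 0.0156), and -0.53 without quadriceps control 4 (adjusted p = 0.0101). The other genes called were Mrpl22 at -0.59, Mrps12 at -0.56, Mrps28 at -0.49, Mrps18b at -0.46, Mrps11 at -0.45 and Mrpl27 at -0.32. Of the 9 genes 4 remained called whichever array was left out: Mrpl52, Mrps21, Mrpl54 and Mrps12. The count was 4 without quadriceps cKO 2 and 5 without quadriceps control 5, soleus control 4 or soleus cKO 5. Above 0, Mrpl39 was called without quadriceps control 6 or soleus cKO 4, Mrpl39 and Mrpl47 without quadriceps cKO 3 or soleus control 1, and Mrps9 without quadriceps control 4. The difference of Mrpl47 was 0.51 in its brighter probe set (adjusted p = 0.137) and -0.50 in its dimmer one (adjusted p = 0.0659). With replicate number as a block, Mrpl39 was called above 0. Leaving out quadriceps control 4 and 6 and soleus control 1 was a setting added after seeing the data. It gave 14 genes below 0 and 4 above (Mrpl39, Mrpl47, Mrps33 and Mrps9).

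**Figure D4:**
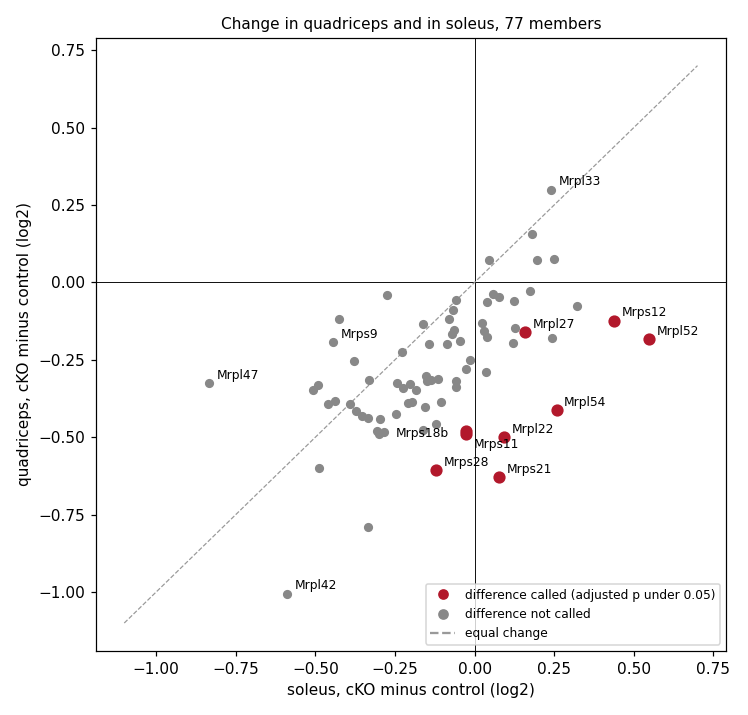
Log2 change in quadriceps (vertical axis) against that in soleus (horizontal axis) for the 77 genes, cKO minus control in both. Red points are the 9 genes whose difference between muscles was called, and all 9 lie below the dashed line of equal change.

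In control mice the set was lower in soleus than in quadriceps. Of 77 genes 40 were lower in soleus control than in quadriceps control and 1, Mrps9, was higher, where 18.3% of all genes kept were called lower and 15.2% higher. The median change (soleus minus quadriceps) was -0.26, against 0.03 over all genes, and 14 genes had every soleus array below every quadriceps array (7.73% of all genes). Centring each array on its median moved the median of all genes by -0.11 and gave 56 genes lower and none higher; quantile normalizing again gave 26 lower and 2 higher. With quadriceps control 4 left out, 40 were lower, and Mrps18a was higher beside Mrps9. Mrpl47 was called higher beside Mrps9 with replicate number as a block, and without quadriceps cKO 3 or soleus control 1. The dimmer probe set of Mrpl47 had the opposite sign here, at -0.32 (adjusted p = 0.0557), against 0.37 for the brighter (adjusted p = 0.0696).

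Mrps12 had 6.13, 6.35 and 6.44 in soleus control, against 6.96, 7.03 and 7.44 in quadriceps control. The muscles were far apart on every array, and the change was -0.81 (SE 0.11, adjusted p = 1.22e-06). Mrpl22 (-0.68) and Mrps26 (-0.62) came next. Mrpl36, the mitochondrial bL36, had 6.81, 7.04 and 7.13 in soleus control, against 7.42, 7.50 and 7.94 in quadriceps control. Its change was -0.60 (SE 0.095, adjusted p = 1.87e-05), again without overlap. Mrps21 (-0.59) and Mrps28 (-0.57) followed.

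Mrps9 ran the other way, with 7.96, 8.08 and 8.19 in soleus control, against 7.46, 7.78 and 8.07 in quadriceps control. The ranges overlapped, and the change was 0.29 (SE 0.076, adjusted p = 0.00434). With arrays centred on their median it was 0.18 (adjusted p = 0.07).

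In cKO mice fewer genes differed between the muscles. In soleus cKO 14 of 77 were lower and 4 higher than in quadriceps cKO, with a median change of -0.09, against -0.01 over all genes. The 18.2% called lower lay near the 16.9% of all genes, and the 5.19% called higher lay below the 11.9% of all genes. The 4 higher genes were Mrpl52 (0.42), Mrps18b (0.39), Mrpl54 (0.37) and Mrps18a (0.28). Mrpl35, the mitochondrial bL35, had the lowest change: it had 7.35, 7.48 and 7.74 in soleus cKO, against 7.76, 7.87 and 8.26 in quadriceps cKO, without overlap. Its change was -0.43 (SE 0.092, adjusted p = 0.00116), followed by Mrpl39 (-0.41), Mrpl23 (-0.36), Mrpl36 (-0.34), Mrpl21 (-0.32) and Mrps14 (-0.31). These counts moved with scaling: median centring gave 25 lower and 2 higher, centring on the 75th percentile 5 lower and 4 higher with a median of 0.01, and quantile normalizing again 4 lower and 5 higher. Without quadriceps cKO 4 or soleus cKO 3, 9 genes were lower, and without soleus cKO 5, 2 were higher. The test of whether the muscle difference itself changed with genotype is the difference of the cKO changes given above.

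The same scalings moved the balance of calls over all genes. Of the genes called in quadriceps 55.7% were higher in cKO as deposited and 37.5% with the 75th percentile as centre. In soleus the share was 57% as deposited and 66.9% with the median as centre, and for the difference 60.2% as deposited and 45.6% with the median as centre. Of the genes called between soleus and quadriceps in controls 45.4% were higher in soleus as deposited, 22.3% with the median and 56.2% with the 75th percentile as centre. In cKO the shares were 41.3% as deposited, 24% with the median and 68.6% with the 75th percentile. In the set, no called gene changed direction under any of the 3 scalings in any of the 5 comparisons.

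Other proteins of the mitochondrial ribosome carry names outside the Mrpl and Mrps series, and 4 of them were measured and kept. In quadriceps Dap3, a GTP-binding protein of the small subunit, changed by -0.42 (adjusted p = 0.000894), Ptcd3, a pentatricopeptide repeat protein of the small subunit, by -0.48 (adjusted p = 0.000295) and Chchd1, another small subunit protein, by -0.46 (adjusted p = 0.0062). Gadd45gip1, of the large subunit, had a change of -0.20 (adjusted p = 0.158). In soleus Dap3 (-0.28, adjusted p = 0.032) and Ptcd3 (-0.37, adjusted p = 0.00508) were called lower. Chchd1 had a soleus change of 0.23 (adjusted p = 0.226), and its difference between muscles was -0.69 (adjusted p = 0.0142).

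Other lists cover what makes the ribosome work, and the shares of all genes called lower and higher given above are their background too. Calls in 1 muscle alone do not show a difference between muscles, and the called differences are counted after these lists. Of 24 factors that build the ribosome and modify its RNA 8 fell and 2 rose in quadriceps (median -0.16), and 8 fell and 1 rose in soleus (median -0.15). Over the settings run, leaving out single arrays included, those called lower numbered 5 to 13 in quadriceps and 5 to 10 in soleus. Malsu1, which keeps the large subunit from joining too early, had a quadriceps change of -0.85 and a soleus change of -0.26 (adjusted p = 0.201). Fastkd2, an RNA-binding assembly factor of the large subunit, fell in both, by 0.52 in quadriceps and by 0.70 in soleus on the log2 scale. Rbfa, of the small subunit, fell in quadriceps (-0.44), and the GTPase Gtpbp10 fell in soleus (-0.56).

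Translation factors and their partners fell in 7 of 15 in quadriceps (median -0.25) and in 5 of 15 in soleus (median -0.23), and none rose. Over the settings run 7 to 10 fell in quadriceps and 4 to 10 in soleus. Taco1, the activator of COX1 translation, fell by 0.53 in quadriceps and by 0.55 in soleus. Gfm2, which recycles ribosomes, fell in both too, by 0.51 in quadriceps and by 0.26 in soleus. Mtrf1, a release factor, fell in quadriceps (-0.59). Lrpprc, which stabilises mitochondrial messages, fell in soleus (-0.65, adjusted p = 8.01e-05) with a quadriceps change of -0.17 (adjusted p = 0.223), and its difference between muscles was 0.48 (adjusted p = 0.0473).

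Genes for charging mitochondrial tRNAs were called lower in 6 of 19 in each muscle, with medians of -0.05 in quadriceps and -0.10 in soleus. Over the settings run the count ran between 3 and 6 in quadriceps, with medians between -0.16 and -0.02, and between 3 and 7 in soleus. Qrsl1, of the amidotransferase that makes glutaminyl-tRNA, fell in both (-0.46 in quadriceps, -0.42 in soleus), Sars2 (-0.43) and Lars2 (-0.33), the seryl- and leucyl-tRNA synthetases, fell in quadriceps, and Gatc, of the same amidotransferase, fell in soleus (-0.56). Genes for expression of mitochondrial DNA fell in 6 of 15 in quadriceps (median -0.20) and in 2 of 15 in soleus (median -0.09), with 1 higher in each. These are 40% lower in quadriceps, where 17.7% of all genes were, and 13.3% lower in soleus, near the 9.94% of all genes, and over the settings run 3 to 7 fell in quadriceps and 2 to 5 in soleus. Tfb2m, a transcription factor of mitochondrial DNA, fell in both (-0.48 in quadriceps, -0.38 in soleus), Tefm, its elongation factor, fell in quadriceps (-0.38), Pnpt1, a nuclease, fell in both (-0.28 and -0.67), and Elac2, which trims tRNA ends, rose in soleus (0.48). Chaperones and proteases of mitochondria fell in 4 of 12 in quadriceps and in 5 of 12 in soleus (4 to 5 and 4 to 8 over the settings run), among them Dnaja3 (-0.41 in quadriceps, -0.34 in soleus) and the protease subunit Spg7 (-0.47 and -0.22) in both. The chaperones Hspd1 (-0.51) and Hspa9 (-0.45) fell in soleus and were not called in quadriceps, with differences between muscles of 0.46 (adjusted p = 0.019) and 0.39 (adjusted p = 0.0431).

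Among 14 regulators of mitochondrial genes, 5 rose and 3 fell in quadriceps (median 0.09), and 1 rose and 2 fell in soleus (median 0.00). The 21.4% called lower in quadriceps lay near the 17.7% of all genes, and in soleus 14.3% were lower and 7.14% higher, against 9.94% and 13.2% of all genes. Over the settings run 3 to 5 rose and 2 to 4 fell in quadriceps, and 1 to 2 rose and 2 to 4 fell in soleus. Ppargc1a, the coactivator PGC-1α, fell in soleus by 1.78 on the log2 scale (adjusted p = 0.00011) with a quadriceps change of -0.51 (adjusted p = 0.196). Ppara, a receptor for fatty acids, fell in both (-0.52 in quadriceps, -1.09 in soleus), Esrrg, an estrogen-related receptor of oxidative fibres, rose in quadriceps (1.20), and Myc rose in both (0.55 and 1.09). Some of the factors whose motifs were searched, named for that reason, were not called in either muscle: Nrf1 had changes of -0.04 in quadriceps and 0.05 in soleus, Gabpa 0.16 and -0.22, and Yy1 0.04 and 0.06. Others were called in quadriceps: Gabpb1, the partner of Gabpa, rose by 0.27 (adjusted p = 0.035), and Esrra, an estrogen-related receptor, fell by 0.46 (adjusted p = 0.00124). The difference between muscles was called above 0 for 1 and below 0 for 1 of the 24 building factors. Above 0 it was called for 1 of 15 translation factors and 1 of 14 regulators. Below 0 it was called for 1 of 19 tRNA-charging genes and 1 of 15 genes for expression of mitochondrial DNA.

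For scale, nuclear subunits of respiratory complex I were counted too, a complex that also holds subunits made on these ribosomes. The nuclear ones fell in 30 of 36 in quadriceps (median -0.42) and in 23 of 36 in soleus (median -0.33), and none rose. The proteins of the cytosolic ribosome went the other way: 18 of 56 rose and 1 fell in quadriceps (median 0.17), and 30 of 56 rose and 1 fell in soleus (median 0.31). The number of cytosolic ribosome genes called higher ran between 7 and 35 in quadriceps and between 24 and 44 in soleus over the settings run, with positive medians throughout.

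**Figure D5:**
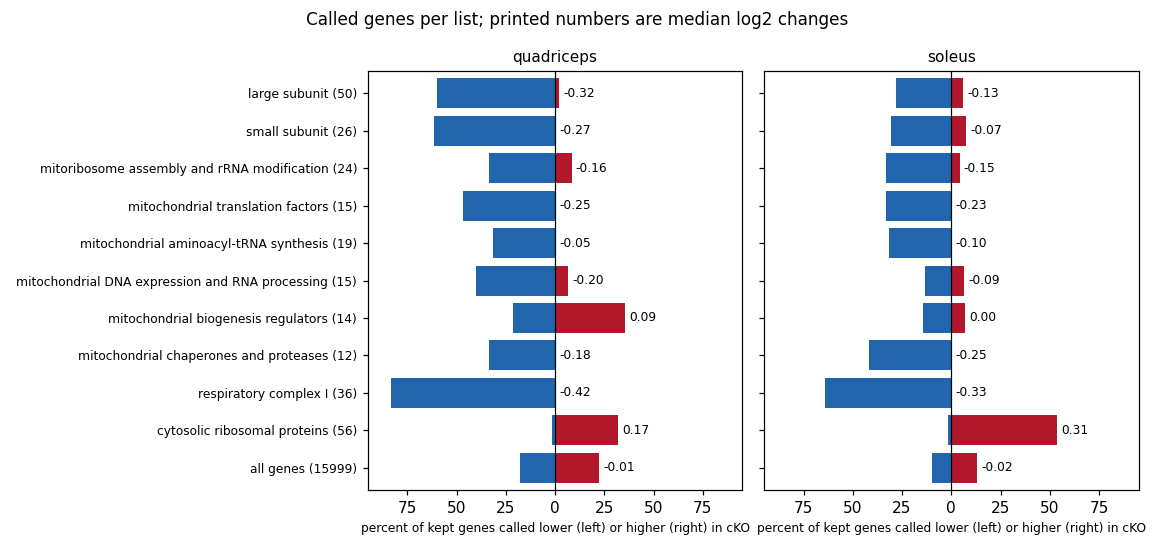
Percentage of each list's kept genes (number in brackets) called lower (blue, left) or higher (red, right) in cKO, in quadriceps and soleus; the number beside each bar is the list's median log2 change. In quadriceps both subunits of the mitochondrial ribosome lie near 60% lower, complex I above them, and the cytosolic ribosome on the side of higher calls.

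Markers of fibre types and of other cells moved in the same comparisons. Of all genes kept, 22.3% were called higher and 17.7% lower in quadriceps, and 13.2% higher and 9.94% lower in soleus. All 8 slow fibre markers rose in quadriceps (7 to 8 over the settings run, median change 2.07). Their mean level ran between 10.81 and 11.35 in quadriceps cKO, against 8.58 to 9.999 in quadriceps control. Quadriceps controls 1 and 6, at 9.999 and 9.82, stood above the other controls, which reached 8.91. In soleus the mean level ran between 12.13 and 12.17 in cKO, against 11.60 to 12.14 in control. Soleus control 1, at 12.14, stood at the cKO level, and the other controls reached 11.75. Of the 8 slow markers 3 rose in soleus (2 to 6 over the settings run) and 1 fell. Fast fibre markers fell in 5 of 8 in quadriceps and in 7 of 8 in soleus (3 to 7 in quadriceps and 7 in soleus over the settings run), with mean levels of 12.16 to 12.38 in quadriceps cKO, against 12.57 to 12.65 in quadriceps control, and of 10.01 to 10.69 in soleus cKO, against 10.95 to 11.95 in soleus control. The same markers set the labelled muscles apart: in controls all 8 slow markers were higher and 7 of 8 fast markers lower in soleus.

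Of 8 macrophage markers 6 rose in each muscle, with mean levels of 6.84 to 7.03 in quadriceps cKO, against 5.76 to 6.30 in quadriceps control, and of 6.27 to 6.72 in soleus cKO, against 5.67 to 6.08 in soleus control. Matrix fibroblast markers rose in 6 of 7 in quadriceps and in 4 of 7 in soleus (4 to 6 and 3 to 4 over the settings run). Their mean levels were 10.30 to 10.57 in quadriceps cKO, against 9.31 to 10.11 in quadriceps control. In soleus they were 9.98 to 10.44 in cKO, against 9.69 to 9.95 in control. Adipocyte markers rose in 4 of 7 in quadriceps (8.39 to 9.84 in cKO, against 7.59 to 8.95 in control), 3 to 5 over the settings run. None was called in soleus (7.42 to 8.62 in cKO, against 7.28 to 7.92 in control), where 0 to 2 rose over the settings run. Endothelial markers fell in 7 of 8 in soleus, 4 to 8 over the settings run (7.59 to 7.85 in cKO, against 8.18 to 8.67 in control). None was called in quadriceps (7.56 to 8.05 in cKO, against 7.79 to 8.45 in control), where 0 to 1 fell over the settings run. The part of these shifts in the changes of the mitochondrial ribosomal proteins was not tested.

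The sequence around the start was looked at for what the genes share. RefSeq's promoter table of GRCm38.p6, with windows of 250 bases before to 50 after the start, held 68 of the 77, and 17491 coding genes in all. On either strand, the NRF1 palindrome with A between GCGC and TGCGC was present in 3 of the 68 (4.41%), against 1.32% of all genes. With any base between them, which includes the palindrome, it was present in 13 (19.1%), against 6.6%. The core of the ETS factors, to which GABP belongs (CCGGAAG), was present in 24 (35.3%), against 11.9%, and a YY1 motif (AAGATGGCG) in 8 (11.8%), against 1.94%. A motif of the estrogen-related receptors (TCAAGGTCA) was in none of the 68 and in 0.332% of all windows.

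Among the 68 genes, 40 fell in quadriceps and 28 did not. The NRF1 motif with any middle base was in 10 of the 40 (25%) and in 3 of the 28 (10.7%), and CCGGAAG in 13 of the 40 (32.5%) and in 11 of the 28 (39.3%). AAGATGGCG was in 8 of the 40 (20%) and in none of the 28. The 8 were Mrpl35, Mrpl36, Mrpl37, Mrpl42, Mrps11, Mrps18a, Mrps24 and Mrps27. This split rests on calls near the limit. The quadriceps call of Mrpl37 (adjusted p = 0.0494) held in 5 of the 24 fits that left out an array. That of Mrps24 (adjusted p = 0.0257) held in 20. The motifs were not counted over all genes called lower in quadriceps. These shares describe letters in a window and not bound sites. The AAGATGGCG matches of Mrpl36 and Mrps11 lay before the start, and the other AAGATGGCG matches lay after it.

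Some of the genes start near a neighbour that runs the opposite way. A coding gene began within 1000 bases on the other strand for 24 of the 68 (35.3%), against 8.04% of all coding genes, at distances of 32 to 935 bases (median 136). Leaving out the pair Mrpl46 and Mrps11, which face each other 42 bases apart on chromosome 7, 20 neighbours outside the set were kept. Of these 20, 6 fell and 3 rose in quadriceps (median -0.01), where 17.7% of all genes kept were called lower and 22.3% higher. Of the 20 set genes facing them 11 fell (median -0.31), where 61% of the whole set fell. Mrpl46 and Mrps11 both fell in quadriceps, by 0.33 and by 0.48 on the log2 scale.

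Some pairs moved together and others apart. Ndufb5, a complex I gene 308 bases from Mrpl47, changed by -0.37 in quadriceps (adjusted p = 0.00413) and by -0.36 in soleus (adjusted p = 0.00775). Mrpl47 itself changed by -0.33 in quadriceps, which was not called (adjusted p = 0.0977), and by -0.83 in soleus (adjusted p = 0.000219). Its dimmer probe set was called in quadriceps (-0.60) and not in soleus (-0.10). Klc4, a kinesin light chain 141 bases from Mrpl2, rose in quadriceps by 0.32 (adjusted p = 0.00538) where Mrpl2 fell by 0.32 (adjusted p = 0.00169). Ppp1r10, a phosphatase regulator 756 bases from Mrps18b, rose by 0.40 (adjusted p = 0.0242) where Mrps18b fell by 0.49. These neighbours were picked after their values were seen.

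For 8 genes a second, dimmer probe set was annotated to the same symbol. In Mrpl23, Mrps5, Mrps33 and Mrps36 both gave the same calls in quadriceps and in soleus, and in Mrpl27 and Mrpl41 neither was called in either muscle. The difference between muscles of Mrpl27 was -0.32 in the brighter probe set (adjusted p = 0.0441) and -0.33 in the dimmer one (adjusted p = 0.0777), which was not called. Mrpl47 is described above. For Mrpl51 the brighter probe set gave -0.48 in quadriceps (adjusted p = 0.000144) and -0.31 in soleus (adjusted p = 0.0141), and the dimmer one -0.16 (adjusted p = 0.294) and -0.47 (adjusted p = 0.00351). Whether a probe set lies at the gene or at a near-identical copy elsewhere was not determined. The probe set that Mrpl53 shares with Ccdc142 changed by -0.18 in quadriceps (adjusted p = 0.11) and by 0.15 in soleus (adjusted p = 0.247).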

How the data were processed

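Total RNA of whole muscle was labelled with biotin and hybridised to Affymetrix arrays. The authors deposited 1 intensity per probe set and array on a linear scale, from 1.763 to 10075, made with Affymetrix Expression Console and RMA on mm10, per the submitters' processing notes. No source used here names their versions and settings. These values were turned to log2. Of 35557 probe sets 21789 had 1 symbol, updated through Entrez numbers to RefSeq's GRCm38.p6, and the brightest probe set stood for a gene. Genes above the array's 30th percentile on at least 6 arrays were kept (15999 of 19938). The 24 arrays entered a single fit with a mean for each of the 4 groups, using lmFit and eBayes of limma 3.58.1 in R 4.3.3. The fit was also run on simulated data with independent noise and few changed genes, a simpler setting than that of these arrays. Two-sided p-values received the Benjamini-Hochberg adjustment across the genes kept, and a call needed an adjusted p under 0.05. Named genes are up to 12 called each way per cKO comparison, up to 6 each way for the other comparisons, both by size of change, and up to 4 per further list, by p, besides genes whose probe sets disagree and Neb; the text says where it goes beyond this.

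The genes and the lists were chosen with earlier results of these data known. The labels number the samples 1 to 6 in every group. Deviations from the group means of quadriceps and soleus arrays with the same genotype and number correlated between 0.22 and 0.45 in cKO and between 0.16 and 0.31 in controls, above 0.1 in all 6 pairs of each and best with their own number, so they were treated as 1 animal in a blocked alternative, although the labels give quadriceps cKO 4 another age than soleus cKO 4. Between genotypes within a muscle the correlations ran from -0.15 to 0.17 in quadriceps and from 0.041 to 0.32 in soleus. They were best with the own number in 3 and 4 of 6 arrays. Quadriceps cKO against soleus control gave -0.044 to 0.28 (3 of 6 best with the own number). Soleus cKO against quadriceps control gave 0.038 to 0.27 (5 of 6). Mice of different genotype cannot be 1 animal, so a shared number does not by itself establish 1 animal. What the number marks was not tested. No source used here gives slides or scan dates, so neither could be examined as a batch. Alternatives were 3 other scalings, 2 other filters, the mean of a gene's probe sets, fits of only the groups compared, array weights, a trended and robust prior, 2 replicate blocks, and leaving out each array.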

Additional observations from a re-analysis of the deposited data

Results flagged for a closer look

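Of 140 sets of 6 arrays examined (34 genes in 4 groups, and the median over the set in each group), 11 had 1 array whose gap to its nearest neighbour, as a share of the group's range, was above Dixon's critical value for 6 samples. Chance flags about 1 in 20 such sets. Quadriceps control 4 was the array in 5 of the 11, high in each: 9.37 in Mrpl42 (next 8.18), 8.38 in Mrps36 (next 7.24), 8.66 in Mrpl13 (next 7.74), 8.51 in Mrpl52 (next 7.76) and 9.08 in Mrpl54 (next 8.33). It is also the array of lowest weight. The others were spread over 5 arrays: Mrpl13 at 7.48 in quadriceps cKO 4 (high), Mrpl47 at 5.89 in quadriceps cKO 3 (low), Mrpl52 at 7.26 in quadriceps cKO 1 (low), Mrpl36 at 6.81 in soleus control 4 (low), and in soleus control 1 Mrpl51 at 9.40 (low) and Mrps34 at 8.06 (high).

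The cKO change differed between the muscles, by the test of the difference (quadriceps change minus soleus change), in 9 genes: Mrpl52 (-0.73), Mrps21 (-0.71), Mrpl54 (-0.67), Mrpl22 (-0.59), Mrps12 (-0.56), Mrps28 (-0.49), Mrps18b (-0.46), Mrps11 (-0.45) and Mrpl27 (-0.32).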

How the results depend on the processing

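No result for a named gene changed direction in 1899 gene results under other settings, and 40 of 53 kept their call in every setting run; 64 gene results lost it. Over the fits that left out 1 array each, the genes called lower numbered 40 to 48 in quadriceps, 18 to 28 in soleus, 4 to 11 for the difference (4 to 13 in either direction), 36 to 45 for soleus minus quadriceps in controls and 9 to 17 in cKO, and those called higher 0 to 1, 3 to 6, 0 to 2, 1 to 2 and 2 to 4.

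Genes called higher in quadriceps were 0 with the 75th percentile as centre and with quantile normalization again; in soleus they were 3 in both, 10 with array weights and 9 without the 3 arrays of lowest weight. For the difference, 1 was called above 0 with quantile normalization again and with a stricter dim filter; array weights gave 20 calls (17 below and 3 above 0), and leaving out the 3 arrays of lowest weight gave 18 (14 below and 4 above). For soleus minus quadriceps in controls, the genes called higher were 0 with median centring and 2 with the 75th percentile, quantile normalization again, array weights or without those 3 arrays, and quantile normalization again gave 26 lower. In cKO median centring gave 25 lower and 2 higher, array weights gave 23 lower, the 75th percentile gave 9 calls, 5 of them lower, with the median reversed at 0.01 (0.0058), and quantile normalization again gave 9 calls, 4 of them lower. The cause of these shifts was not tested.

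Blocked fits took replicate number as a fixed block or the assumed animal (the pairing of quadriceps and soleus by number) as a random block. In both, the genes called higher were 1 for the difference (Mrpl39) and 2 for the control muscles (Mrps9 and Mrpl47). No other count moved by over 1.5 times. Fitting only the groups compared gave no value for the difference, and Mrpl22 dropped out under the stricter filter. The limit for dim genes lay between 3.51 and 3.72, and Mrpl22, with means from 4.23 to 4.90, was the gene nearest to it.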
